A study of Homo sapiens with 8 samples.

Results

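The genes described here encode the proteins of the mitochondrial ribosome. They were taken from the deposited table of translational efficiency by name, as every gene called MRPL or MRPS with a number and an optional letter, together with DAP3. This gave 78 of 9339 genes, 48 named for the large subunit and 30, DAP3 included, for the small subunit. The rule used the name alone and no measured value, although this group of genes was picked for description with earlier results of these data known. Mitochondria keep ribosomes of their own, which translate the few proteins of the respiratory chain and ATP synthase that the mitochondrial genome still encodes. Their ribosomal RNA is mitochondrial, whereas all of their proteins are encoded in the nucleus, translated by cytosolic ribosomes and imported. The readout below therefore concerns the translation of these mRNAs in the cytosol, not the work of the mitochondrial ribosome itself.

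The libraries came from THP-1, a human monocytic leukaemia line in culture, with knockdown of ALKBH5, the enzyme that takes the methyl group off N6-methyladenosine in RNA, or as control. The groups were knockdown footprints, knockdown input RNA, control footprints and control input RNA, each of 2 libraries and 8 in all. The sources used here do not give the means of knockdown. The labels do not say whether replicate libraries are separate cultures. The p-values and errors rest on these libraries alone, whose variation may be technical. Footprints were labelled total RNA and input polyA RNA. Translational efficiency is footprint abundance relative to input RNA, and its change between the conditions is given as a log2 fold change with the sign as deposited. The table does not say which condition is the reference, so a negative value may stand for either lower or higher efficiency in the knockdown. The depth of each library is unknown, and values per library were not analysed here. Of the myeloid markers, 12 of 12 had a row, with mean signals from 4.55 for ITGAM to 2942 for LYZ, while 0 of 5 lymphoid, 0 of 3 erythroid and 0 of 3 epithelial markers did.

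The promoter windows of these genes are shown first, since many of them hold the same short letter patterns, which the choice by name did not use. RefSeq windows (GRCh38.p14, 250 bases before to 50 after each annotated start, both strands searched) were matched by symbol for 69 of 78 genes, with 86 windows in all. The core recognised by transcription factors of the ETS family, CCGGAAG, stood in 33 of 86 windows (38.4%), against 26 of 78 windows (33.3%) of cytosolic ribosomal protein genes, 2098 of 10724 (19.6%) of the other genes in the table and 10.3% of all 35116 windows. The lines below give the 30 bases around the first match, with the ETS core in capitals and as its reverse complement where the match lies on the other strand, for genes at the ends of the order of Wald statistics, the fold change divided by its standard error (MRPL53, MRPL43, MRPL28 and MRPL3) and for genes that received an adjusted p (MRPS34, MRPL18 and MRPL52).
MRPL53 (chr2:74472734-74472763, minus strand): gcagccggcggCCGGAAGtctatcccgcag
MRPL43 (chr10:100987497-100987526, minus strand): tcgtcccggaaCCGGAAGcctcgaggttta
MRPL28 (chr16:370513-370542, minus strand): cggcagatcggCTTCCGGttccggtgggct
MRPL3 (chr3:131502985-131503014, minus strand): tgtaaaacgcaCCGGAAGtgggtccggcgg
MRPS34 (chr16:1773187-1773216, minus strand): cctcttcctcgCTTCCGGccgcgaccgaac
MRPL18 (chr6:159790430-159790459, plus strand): gggacttgctaCTTCCGGgtcggtggcgtc
MRPL52 (chr14:22829871-22829900, plus strand): ggccacgcctaCTTCCGGctaccccggcta
Genes from both ends of the order were chosen for these lines, so their signs say nothing about the core. Of the 30 genes with the core in a window, 21 had a negative fold change, and of the 39 without it, 28 did.

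A letter pattern of another kind bears on translation itself. The mRNAs of cytosolic ribosomal proteins typically begin with a C followed by a run of pyrimidines, the terminal oligopyrimidine tract, through which their translation follows mTOR signalling. A C followed by at least 4 pyrimidines at the annotated start was found in 5 of 86 windows (5.81%) of the mitochondrial ribosomal protein genes, against 47 of 78 windows (60.3%) of cytosolic ribosomal protein genes and 595 of 10724 (5.55%) of the other genes in the table. The tracts in these windows were 5 or 6 bases long, and the lengths in cytosolic ribosomal protein genes were not measured. The 5 windows are given with 10 bases before the start and the tract in capitals.
MRPL53 (chr2:74472661-74472690, minus strand): tgcacgagttCTTCCggggcggaggtcacc
MRPL44 (chr2:223957453-223957482, plus strand): ccatcgttttCTCTCgtgcaatggcgtccg
MRPS27 (chr5:72320221-72320250, minus strand): gttggctgttCCTTTTggtacgctccaaga
MRPS33 (chr7:141014933-141014962, minus strand): gagggcgggcCTTCCgggacgagggcgcgt
MRPS2 (chr9:135499955-135499984, plus strand): gggccgggttCCTCTgcgggtgggtccgga
In MRPL53 and MRPS33 the tract overlaps an ETS core on the other strand. In the authors' deposited table all 5 genes had negative fold changes, from -0.37 for MRPL53 to -0.05 for MRPS2, with a median of -0.15, beside a median of -0.13 for the 64 genes without such a start, of which 44 were negative. Annotated starts can lie several bases from the start used in a given cell, so the counts describe the annotation.

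Both other patterns searched were less frequent than the ETS core. The letters AAGATGGCG, bound by YY1, were found in 13 of 86 windows (15.1%), against 6.41% of windows of cytosolic ribosomal protein genes, 4.04% of those of the other genes in the table and 1.75% of all windows. They hold an ATG, and in MRPL46 (chr15:88467361-88467390, minus strand) they begin 9 bases into the annotated transcript, as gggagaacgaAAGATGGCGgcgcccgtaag. Part of the NRF1 site, GCATGCGC, was found in 6 of 86 windows (6.98%), against 5.39% of those of the other genes in the table. Fold changes of the genes with and without these letters overlapped. The median was -0.17 for 30 genes with an ETS core and -0.11 for 39 without. It was -0.0055 for 13 genes with the YY1 letters, of which 7 were negative. For the 56 genes without the YY1 letters it was -0.15, and 42 were negative. The quartiles overlap in both cases, and neither difference was tested.

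**Figure D1:**
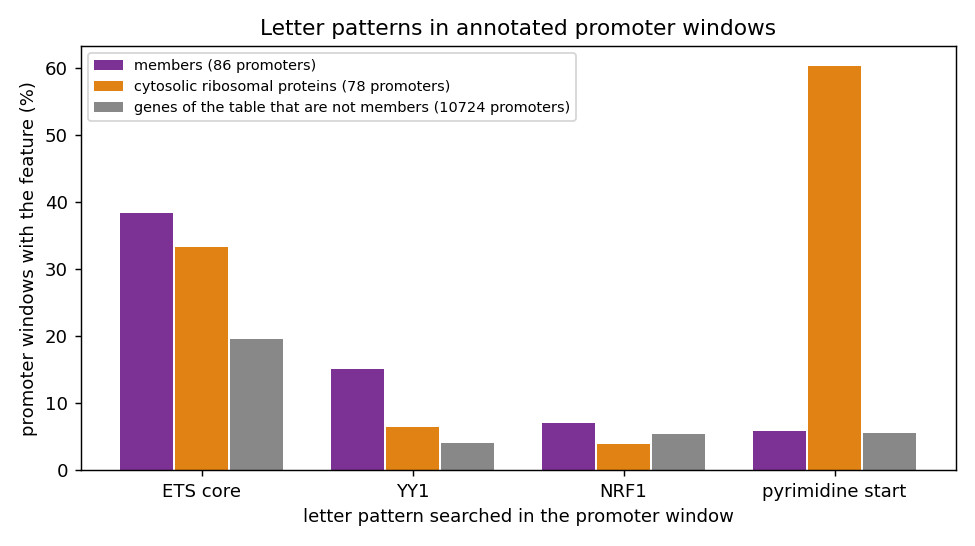
Share of annotated promoter windows (vertical axis, percent) that hold each letter pattern (horizontal axis), for mitochondrial ribosomal protein genes, cytosolic ribosomal protein genes and the other genes of the table. The pyrimidine start stands at 5.81%, 60.3% and 5.55% of windows in that order, and the ETS core at 38.4%, 33.3% and 19.6%.

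No mitochondrial ribosomal protein gene passed the authors' test of translational efficiency, and most stood slightly on the negative side. The deposited log2 fold change was below zero in 55 of 78 genes and above zero in 23, in the authors' deposited table. Its median was -0.13 (quartiles -0.24 and 0.01), which corresponds to 0.912 as a ratio between conditions. The values lay close together, from -0.63 for MRPS36 to 0.47 for MRPL46, and 24 of 78 were within 0.1 of zero. Of the 7 genes with enough mean signal to receive an adjusted p (riborex with its DESeq2 engine, Wald test), 0 passed at 0.05, where 1.54% of all 648 genes with an adjusted p did. At an unadjusted p under 0.05, 0 of 78 passed, where 0.707% of all 9339 genes did. With the p-values adjusted over all 9339 genes, 0 of 78 passed (0.075% of all genes), and over the 5116 genes whose mean signal reached 10, again 0 of 78 (0.137% of those genes). The Wald statistic ran from -0.93 to 0.71, and 0 of 78 genes reached a size of 1, against 258 of 9339 genes (2.76%) over the table. Its standard deviation was 0.31 over the 78 genes, 0.43 over all 9339 and 1.06 over the 648 with an adjusted p. Errors matched to the scatter of unchanged genes would give about 1. Over most of the table the errors were thus wide for that scatter, and a lack of large statistics is no trait of these 78 genes alone. The reason was not tested.

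The errors decide how much can be read from a single gene. The deposited standard errors had a median of 0.65 log2 units and ran from 0.34 for MRPL18 to 1.61 for MRPL50, and the 95% interval computed from them covered zero in 78 of 78 genes. An estimate of 1 log2 unit would have reached an unadjusted p of 0.05 in 20 of the 78. For 9 genes the whole interval lay between -1 and 1, which bounds the change below a doubling or halving in either direction: MRPL37, MRPL41, MRPL18, MRPL13, MRPL52, MRPS28, MRPL51, MRPL49 and MRPS24 (the last 3 named after their values were seen). For 58 of 78 genes an estimate of 1 log2 unit would have missed that threshold, even without adjustment.

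**Figure D2:**
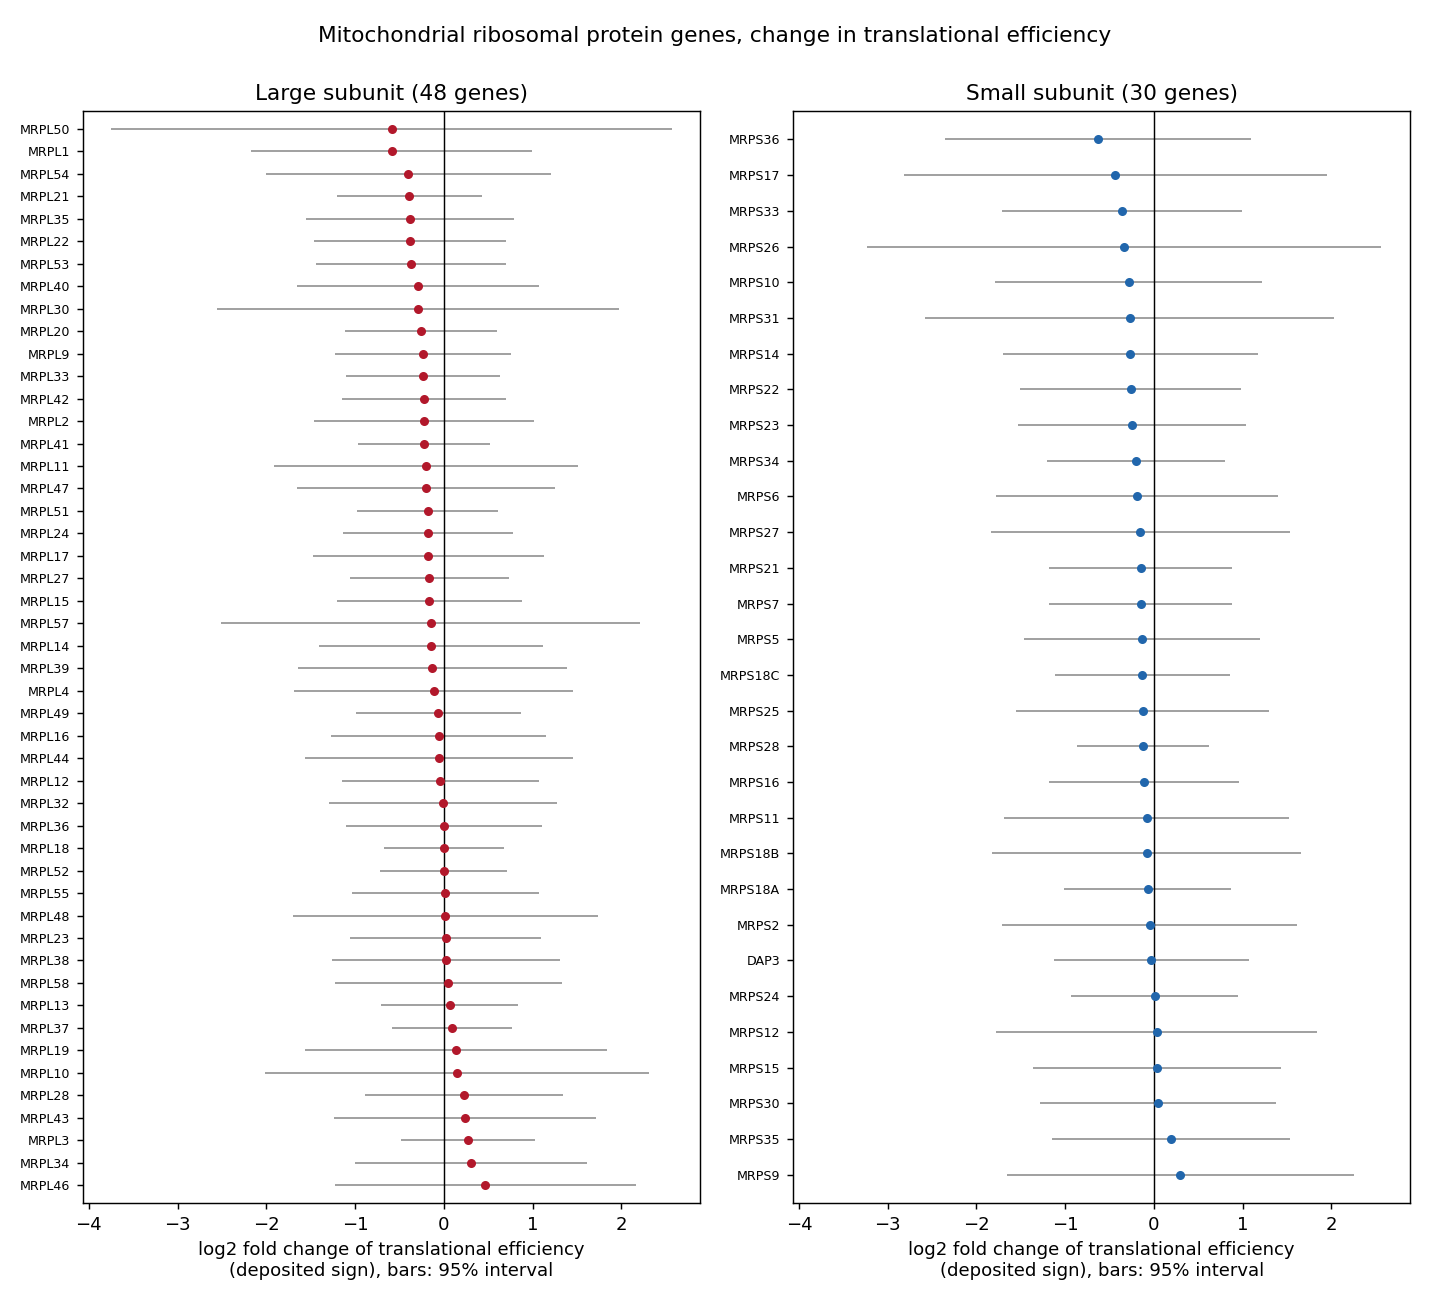
Log2 fold change of translational efficiency (horizontal axis, deposited sign) for each of the 48 large subunit genes and 30 small subunit genes, as points with the 95% interval from the deposited standard error as bars. Every bar crosses zero, and 31 large subunit and 24 small subunit points lie on the negative side.

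The 7 genes with an adjusted p were those of highest mean signal, the mean over all libraries after scaling, which is not divided by length and so serves here as a measure of precision only. MRPL37, a large subunit protein with no bacterial counterpart, had the highest mean signal, 400.7. Its log2 fold change was 0.09 ± 0.34 (SE) in the authors' deposited table, with a 95% interval from -0.58 to 0.77. MRPL41, also without a bacterial counterpart, had a mean signal of 345.2 and -0.22 ± 0.38 in that deposited table, with an interval from -0.96 to 0.53. MRPL18, of the central protuberance at the top of the large subunit, had the narrowest interval, from -0.67 to 0.68 around 0.0011. These 3 genes thus lay on both sides of zero by less than their errors. In the authors' deposited table MRPL55 stood at 0.02 ± 0.54 and MRPL13 at 0.07 ± 0.39, and MRPL52 at 0.0011 ± 0.37. The small subunit protein MRPS34 had -0.20 ± 0.51 at a mean signal of 162.7 in the authors' deposited table. All 7 had an adjusted p of 0.999.

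At the negative end of the order of statistics stood 4 large subunit genes and MRPS36. MRPL21, a homolog of a bacterial large subunit protein (chromosome 11, 68891278 to 68903832), had -0.39 ± 0.42 in the authors' deposited table. Its mean signal was 149.5, and its unadjusted p, 0.353, was the smallest of the 78. MRPL22, whose bacterial homolog lines the tunnel through which the new peptide leaves, had -0.38 ± 0.55 at a mean signal of 150.7, and MRPL53 had -0.37 ± 0.55 at 69.6, both in the authors' deposited table. MRPL1, the protein of the L1 stalk, which moves with the tRNA that leaves the ribosome, had -0.59 ± 0.81 in the authors' deposited table. Its 95% interval, from -2.17 to 0.99, shows how little the size of its fold change says.

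Positive statistics were led by MRPL3, whose bacterial homolog reaches towards the peptidyl transferase centre, where peptide bonds form. In the authors' deposited table it had 0.27 ± 0.39 (unadjusted p = 0.479) at a mean signal of 143.9. The RefSeq span of MRPL3 (chromosome 3, 131462212 to 131502971) contains the snoRNA gene SNORA58, and the sources used here do not say how reads in such overlaps were counted. MRPL23 (0.02 ± 0.55 in that deposited table) is the only other of the 78 genes that overlaps small RNA genes, SNORD131 and MIR675. MRPL46, of the central protuberance, had 0.47 ± 0.86, the bacterial-type proteins MRPL34 and MRPL28 had 0.31 ± 0.67 and 0.23 ± 0.57, and MRPL43, without a bacterial counterpart, had 0.24 ± 0.75 in the authors' deposited table. Each of these values was smaller than its own standard error, as at the negative end. MRPL50 had the lowest mean signal of the 78, 10.6, and its interval ran from -3.75 to 2.58.

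By their place in the large subunit, most groups of proteins had medians on the same side as the whole, and the central protuberance stood near zero. Means weighted by the inverse squared error changed that order. They were -0.03 for the central protuberance and 0.09 for the 3 proteins around the peptidyl transferase centre. These groups were drawn up after values had been seen. Of 6 proteins at the peptide exit tunnel, 5 were negative, with a median of -0.18: in the authors' deposited table MRPL24 stood at -0.18 ± 0.49, MRPL47 at -0.20 ± 0.74 and MRPL23 at 0.02 ± 0.55. Of 4 proteins of the stalks, 3 were negative, with a median of -0.12; MRPL12, which recruits translation factors, had -0.04 ± 0.57 in the authors' deposited table. Of 6 proteins of the central protuberance, 2 were negative, with a median of 0.01; MRPL27 had -0.16 ± 0.46 and MRPL40 -0.29 ± 0.70 in the authors' deposited table. Around the peptidyl transferase centre MRPL2 had -0.22 ± 0.63 and MRPL16 -0.06 ± 0.62 in the authors' deposited table, beside the positive value of MRPL3. With 3 to 6 genes a group and errors above 0.3, these medians are a description only.

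In the small subunit 24 of 30 genes were negative, with a median of -0.13 (quartiles -0.26 and -0.05). In the large subunit 31 of 48 were negative, with a median of -0.14 (quartiles -0.23 and 0.02), so the medians of both subunits were nearly equal, while the share of negative genes was 80.0% in the small subunit and 64.6% in the large subunit. The difference between the shares was not tested. In the head of the small subunit, 4 of 6 proteins were negative: MRPS7 had -0.15 ± 0.52, MRPS24 0.0076 ± 0.48 and DAP3, a GTP-binding protein also known from apoptosis, -0.03 ± 0.56 in the authors' deposited table. On the platform, which faces the large subunit, 4 of 5 were negative, and in the body 3 of 4, among them MRPS16 at -0.11 ± 0.55 in the authors' deposited table. MRPS12, the homolog of the bacterial protein at the decoding site, stood at 0.03 ± 0.92 in that deposited table. MRPS28 had the smallest error of the subunit, -0.12 ± 0.38 in the authors' deposited table.

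The MRPS18 paralogs show how a gene name can differ from a place in the ribosome. MRPS18A and MRPS30 carry small subunit names, but their proteins sit in the large subunit of the human mitochondrial ribosome, whereas MRPS18B and MRPS18C belong to the small subunit. With MRPS18A and MRPS30 counted in the large subunit, its median was -0.12 with 64.0% negative. The small subunit then had a median of -0.14 with 82.1% negative. MRPS36 was kept in the small subunit in either count. In the authors' deposited table MRPS18A had -0.07 ± 0.48, MRPS18B -0.08 ± 0.89 and MRPS18C -0.13 ± 0.50. The differences among the 3 were far smaller than their errors. MRPS36, which had the most negative fold change of all (-0.63 ± 0.88 in the authors' deposited table, mean signal 26.9), is now named KGD4, since its protein belongs to the 2-oxoglutarate dehydrogenase complex and is not a subunit of the human mitochondrial ribosome.

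Proteins inherited from the bacterial ancestor and those added later stood at similar medians. Of 47 genes whose proteins have a homolog among bacterial ribosomal proteins, 34 were negative, with a median of -0.13. Of 29 measured genes whose proteins are particular to the mitochondrial ribosome, 20 were negative, with a median of -0.15. MRPS36 and MRPL55 were placed in neither list.

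Set beside the rest of the table, the mitochondrial ribosomal protein genes lay about 0.1 log2 units further to the negative side by the median, and less so at high signal. Their median was -0.13 with 70.5% negative, against -0.02 with 51.9% negative over all 9339 genes. Genes of low signal dominate the table, so the 1372 other genes between the quartiles of the members' mean signal (36.9 and 117.0) were also taken, and they had a median of -0.01 with 51.9% negative. Split into 3 sets by signal, the mitochondrial ribosomal proteins had nearly equal medians. The 26 of lowest signal (10.6 to 45.0) had a median of -0.14, against 0.03 in 3003 other genes of that range. The next 26 (45.9 to 82.6) had -0.13, against 0.01 in 721 other genes. The 26 of highest signal (88.1 to 400.7) had -0.14, against -0.09 in 833 other genes, where the remainder of the table stood on the negative side too. Means weighted by the inverse squared error were -0.10 for the mitochondrial ribosomal proteins and -0.08 for all genes, a smaller distance by that measure. They were -0.02 for the other genes between the quartiles of signal. In the set of highest signal they were -0.094 for the 26 genes and -0.094 for the 833 others. In the lowest set they were -0.12 against 0.01, and in the middle set -0.10 against 0.0051. None of these shifts was tested, since the group had been picked with earlier results in view.

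**Figure D3:**
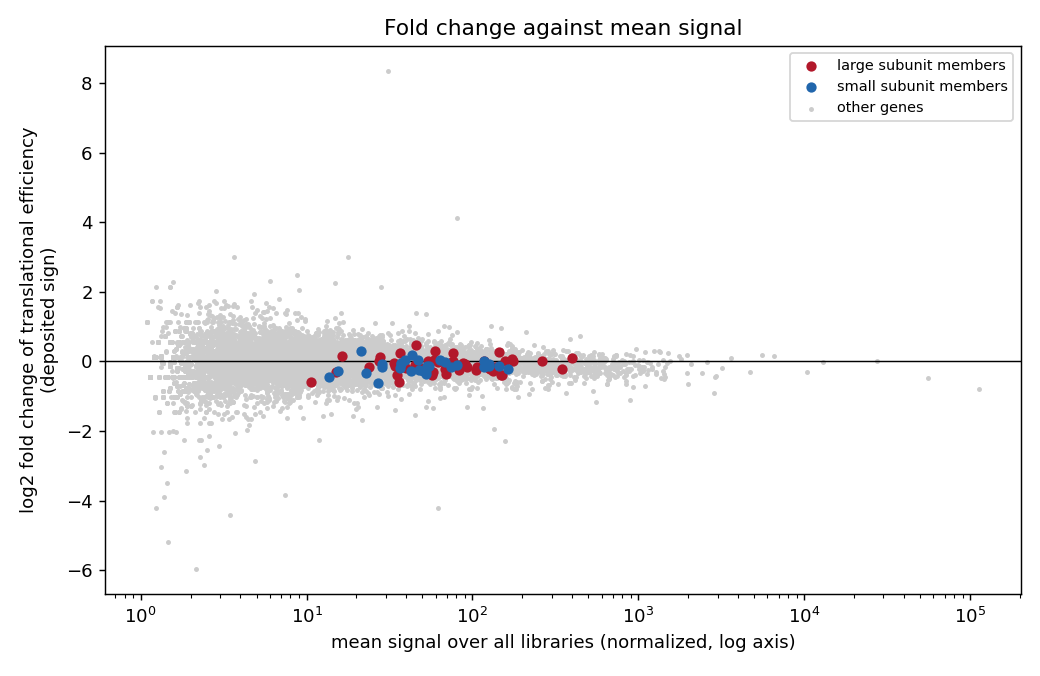
Log2 fold change of translational efficiency (vertical axis, deposited sign) against mean signal over all libraries (horizontal axis, log scale) for the mitochondrial ribosomal protein genes by subunit and for the other genes. The coloured points lie between 10.6 and 400.7 in mean signal and between -0.63 and 0.47 in fold change, inside the cloud of other genes.

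**Figure D4:**
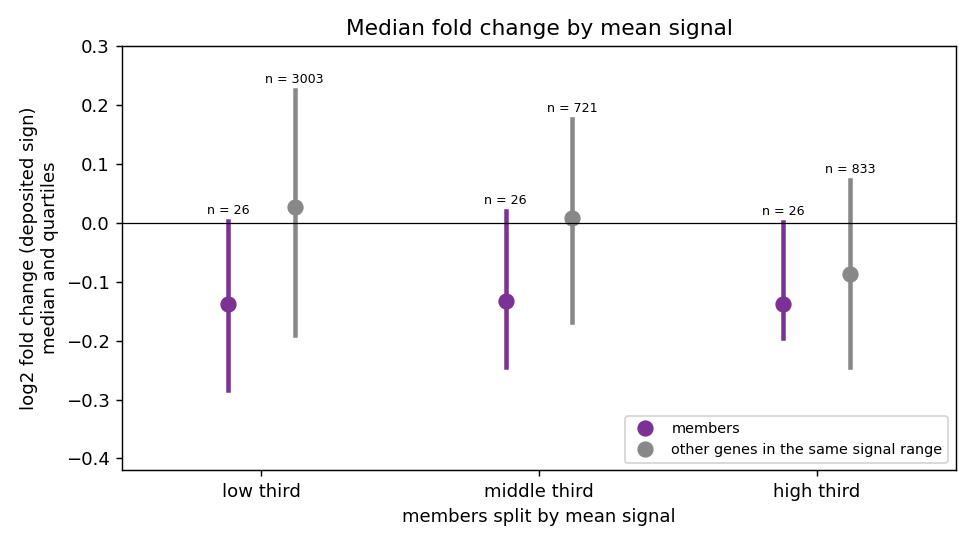
Median (points) and quartiles (bars) of the log2 fold change (vertical axis, deposited sign) for mitochondrial ribosomal protein genes split into 3 sets of 26 by mean signal, each beside the other genes of the same signal range. Medians of the mitochondrial ribosomal proteins were -0.14, -0.13 and -0.14 from low to high signal, against 0.03, 0.01 and -0.09 in the other genes.

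Genes with copies elsewhere in the genome stood further on the negative side than those without. Pseudogenes are common in this family: 42 of 78 genes have at least 1 annotated pseudogene named for them, 106 in all, up to 9 for MRPS21. Of these 42, 35 were negative, with a median of -0.16 (quartiles -0.27 and -0.07). Of the 36 genes without one, 20 were negative (55.6%), with a median of -0.05 (quartiles -0.18 and 0.05), against a median of -0.13 for all 78. Among the other genes between the quartiles of signal, the same split gave medians of -0.06 for 390 genes with a named pseudogene and 0.0026 for 982 without. The sources used here do not say how reads shared with copies were counted, and the part of such copies in the shift was not tested.

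Other genes of mitochondrial translation, at lower signal, had medians near or above zero, while means weighted by the inverse squared error were -0.10 for RNA handling, close to the -0.10 of the mitochondrial ribosomal proteins, -0.03 for translation factors, 0.05 for assembly factors and -0.0062 for the subunits with other names. In each of these lists 0 genes passed at an unadjusted p under 0.05, where 0.707% of all genes did. Of 4 subunits of the mitochondrial ribosome with other names, 2 were negative: in the authors' deposited table AURKAIP1, of the small subunit, had -0.02 ± 0.44 and GADD45GIP1, of the large subunit, -0.44 ± 0.88. Of 25 assembly factors measured, 13 were negative, with a median close to zero; C1QBP had 0.07 ± 0.27 and MRM2, a methyltransferase of the mitochondrial large ribosomal RNA, 0.17 ± 0.70 in the authors' deposited table. Of 14 translation factors measured of 15 listed, 4 were negative, with a median of 0.08; TUFM, the elongation factor that delivers tRNA, had -0.12 ± 0.39 and OXA1L, which inserts new proteins into the inner membrane, 0.0015 ± 0.69 in the authors' deposited table. Of 17 genes of mitochondrial RNA handling, 8 were negative, with a median of 0.03; SLIRP and LRPPRC, partners that stabilise mitochondrial mRNAs, had -0.20 ± 0.27 and -0.20 ± 0.59 in the authors' deposited table.

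Mitochondrial aminoacyl-tRNA synthetases and the related amidotransferase subunits, which charge the tRNAs that the mitochondrial ribosome uses, stood on the positive side. While 23 of 78 mitochondrial ribosomal proteins were positive, 16 of the 19 synthetase genes measured (of 20 listed) were, with a median of 0.23 (quartiles 0.13 and 0.38). Over all 9339 genes, 4493 were positive. The median of the mean signal was 58.2 for the ribosomal proteins and 8.14 for the synthetases, whose median standard error was 1.62. RARS2 and IARS2, of highest signal among them, had 0.24 ± 0.90 and 0.45 ± 0.87 in the authors' deposited table. No single value exceeded its error, and the difference between the lists was not tested. Other genes at the low signal of the synthetases were not set beside them.

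Cytosolic ribosomal proteins and the proteins encoded in mitochondria lay further on the negative side and at much higher signal. The median was -0.13 for the mitochondrial ribosomal proteins, against -0.24 over 79 cytosolic ribosomal protein genes and -0.33 over 13 mitochondrially encoded ones. The last are translated by mitochondrial ribosomes and not in the cytosol, so their ratio of footprints to polyA input is not the same readout. The median of the mean signal was 58.2 for the mitochondrial ribosomal proteins, 519.3 for the cytosolic ones and 779.3 for the mitochondrially encoded proteins. At an unadjusted p under 0.05, 0 of the 78 passed, against 21 of the 79 and 3 of the 13, where 0.707% of all 9339 genes did. The median standard error was 0.65 for the mitochondrial ribosomal proteins, against 0.22 for the cytosolic ones and 0.21 for the mitochondrially encoded proteins, so counts of calls cannot be compared between them.

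**Figure D5:**
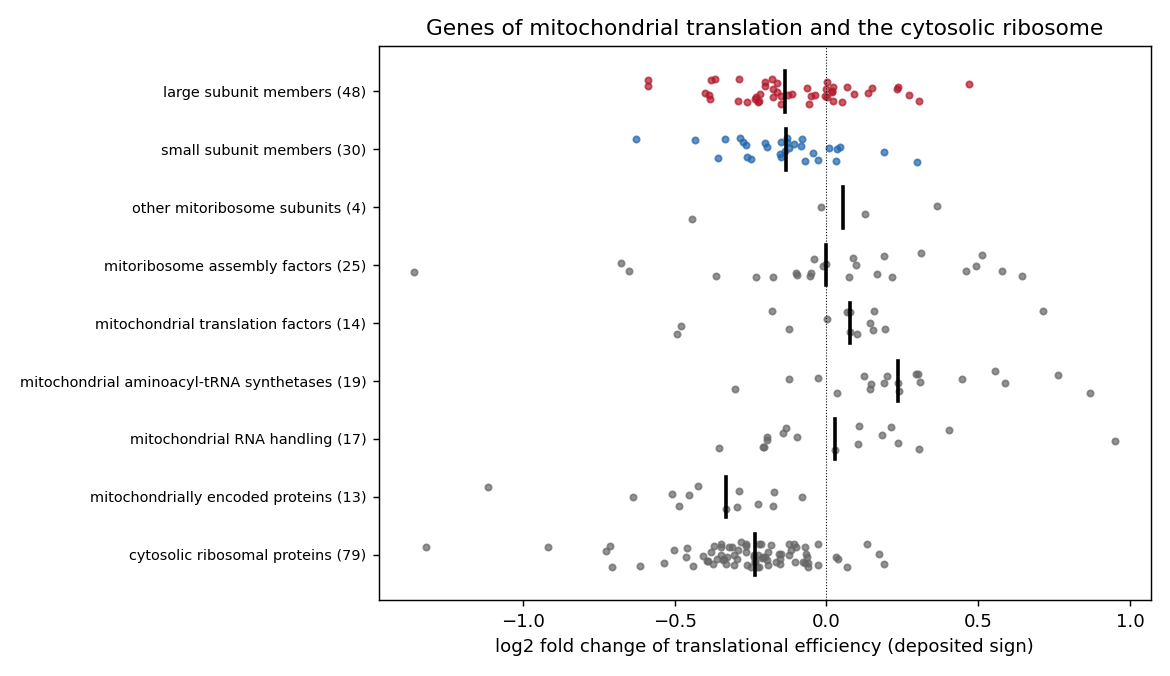
Log2 fold change of translational efficiency (horizontal axis, deposited sign) of every measured gene (points) and the median (bar) in the mitochondrial ribosomal proteins by subunit and in 7 other lists, with the number of genes in parentheses. Medians run from -0.33 for mitochondrially encoded proteins to 0.23 for mitochondrial aminoacyl-tRNA synthetases.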

How the data were processed

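The data were 1 deposited table of 9339 genes, a comparison over all 8 libraries, with 0 columns per library. Groups were taken from the sample titles. The authors used riborex with its DESeq2 engine, per the file's name and the file headers. HISAT2 2.1.0, kallisto, CASAVA and hg38 are named in the submitters' processing notes without a role. The mean signal, the log2 fold change with its standard error, the Wald statistic (a score), the p-value and its adjusted form are the authors', per the file headers. The statistic equals fold change over error, the p is the two-sided normal tail, and Benjamini-Hochberg adjustment over the 648 genes from a mean signal of 155.3 upwards returns the deposited adjusted p.

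Medians, counts, intervals at 95% and adjustments over other gene sets (threshold 0.05) were computed with Python 3.11.15, pandas 2.3.3 and scipy 1.17.1, and the adjustment was tested on simulated data. Positions, pseudogenes and promoter windows come from RefSeq (GRCh38.p14): 77 of 78 genes matched by symbol and 1 by an older name. Named genes are those with an adjusted p, the 10 of highest signal, the 5 most negative and 5 most positive statistics at a mean signal of at least 10, the MRPS18 paralogs and the lowest in signal; others named stand for a group. Genes and lists were chosen with earlier results of these data known, so lists are described without a test. MRPL45 is not analysed here.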

Additional observations from a re-analysis of the deposited data

How the results depend on the processing

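The 6 summary results were recomputed under 19 alternatives, 3 of them chosen after seeing the data. Of these values 17 counted as unmoved: medians and shares that moved by less than their spread, and counts, which have no spread here, that stayed the same. The spread was the standard error of the weighted mean for a median (0.066 for all 78 genes) and the 95% binomial interval for a share. Both treat the genes as independent, though all were measured in the same libraries. They serve as a yardstick for such moves and are not the error of the group's shift. With members that have no named pseudogene, the median became -0.048, against -0.13, and the share of negative genes 55.6%, against 70.5% (the second chosen after seeing the data). Counts of genes passing stayed at 0 with the adjustment over all genes, over genes whose mean signal reached 10, and, unadjusted, after subtracting the median of all genes. All 78 genes had a mean signal of at least 10, so that filter changed nothing, and 48 reached 50. No paired analysis was possible because the table holds no values per library, and leaving out a replicate was not run for the same reason. The deposited errors limit single genes: for 58 of 78 an estimate of 1 log2 unit would miss 0.05 unadjusted. The part of depth in these errors was not tested.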
